A study of Mus musculus with 6 samples.

Results

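The 6 genes Gja1, Gja4, Gja5, Gjc1, Gjb2 and Gjb6 encode connexins that are known from vessels and from the cells around them. They were found by symbol in the GENCODE annotation, which matched each to 1 row of the deposited table, so that they make up 6 of 55450 genes. Poly(A) RNA was sequenced from CD31-positive cells freshly isolated from the brains of mice at postnatal day 7, with 3 libraries per group. Mutant mice were Cdh5(PAC)-CreERT2; Rbpj flox/flox, and control mice were Cdh5(PAC)-CreERT2; Rbpj flox/WT, so the control animals also carried the Cre driver and 1 floxed allele. All pups were given 100 µg of tamoxifen on postnatal days 1 and 2, and both groups had a mixed FVB/N and C57BL/6 background and both sexes. The Cdh5 promoter drives the recombinase in endothelial cells. Rbpj encodes the transcription factor that Notch receptors need to act on their target genes. RNA was pooled within a group, from more than 20 mice according to the extraction protocol and from 13 to 15 according to the design text. The labels do not say whether the 3 libraries of a group were separate pools, so the p-values rest on the spread between libraries alone, and that spread may be technical.

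Connexins are membrane proteins that assemble into a hemichannel, which docks with one on a neighbouring cell to make a gap junction. Ions and small molecules pass through these channels, and in arteries this coupling carries electrical signals along the endothelium and between endothelium and smooth muscle. Gja4 (connexin Cx37) and Gja5 (Cx40) are connexins of arterial endothelium, Gja5 being the more restricted to arteries. Notch signalling and flow are known to act on both. Gja1 (Cx43) is made by endothelial cells and smooth muscle and, in brain, most strongly by astrocytes. Gjc1 (Cx45) is a connexin of mural cells, that is pericytes and smooth muscle. Gjb6 (Cx30) is made by astrocytes, and both it and Gjb2 (Cx26) by fibroblasts of the meninges.

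The promoter windows of the 3 connexin genes that were lower in the mutant libraries by the test given below are shown because Notch acts through Rbpj at DNA and because flow-responsive KLF and arterial SOX factors are known regulators of arterial genes. Each is the RefSeq window on GRCm38.p6 from 250 bases before the gene's start to 50 after it, 5′ to 3′ on the gene's strand, with matches to 3 short motifs in capitals.
Gja5: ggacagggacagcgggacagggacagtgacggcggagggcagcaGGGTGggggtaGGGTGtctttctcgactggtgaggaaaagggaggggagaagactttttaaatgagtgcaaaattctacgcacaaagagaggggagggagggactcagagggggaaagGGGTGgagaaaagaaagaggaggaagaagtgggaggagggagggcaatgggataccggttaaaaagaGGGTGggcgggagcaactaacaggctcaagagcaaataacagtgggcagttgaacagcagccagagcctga
Gja4: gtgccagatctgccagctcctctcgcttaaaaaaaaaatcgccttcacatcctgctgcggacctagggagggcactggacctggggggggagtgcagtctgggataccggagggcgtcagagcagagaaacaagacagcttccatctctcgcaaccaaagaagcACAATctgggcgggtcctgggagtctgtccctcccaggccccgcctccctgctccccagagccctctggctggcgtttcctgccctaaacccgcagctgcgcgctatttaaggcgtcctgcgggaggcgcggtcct
Gjb2: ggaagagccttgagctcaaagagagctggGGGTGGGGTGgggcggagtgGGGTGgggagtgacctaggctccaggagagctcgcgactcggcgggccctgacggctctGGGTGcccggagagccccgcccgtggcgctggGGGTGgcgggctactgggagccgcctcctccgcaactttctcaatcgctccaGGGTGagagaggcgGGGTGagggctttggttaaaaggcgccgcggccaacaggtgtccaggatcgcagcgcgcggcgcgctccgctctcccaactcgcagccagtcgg
The Gja5 window lies at chr3:97032152-97032451 on the plus strand, around a RefSeq start 128 kb downstream of the first base of the GENCODE gene, that of Gja4 at chr4:127313990-127314289 on the minus strand and that of Gjb2 at chr14:57104653-57104952 on the minus strand. The motifs searched, on both strands, were TGGGAA (the core of the RBPJ site), CACCC (KLF) and ATTGT (SOX), and no 2 matches overlapped. The Gja5 window held 4 KLF matches, the Gjb2 window 7, and the Gja4 window none but 1 SOX match. TGGGAA was in none of the 5 windows found, which also included those of Gja1 and Gjb6. Of 32851 promoter windows of this length, 25.6% held TGGGAA, 57.5% CACCC and 31% ATTGT. A match of a few letters describes the sequence only and is not a binding site.

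Libraries of the mutant group held 75744913 to 81556241 counts and those of the control group 78577192 to 82092461. Low counts piled up at multiples of 4, so a count divided by 4 is about the number of read pairs. The groups separated along the first principal component, which held 33.1% of the variance. Along the second, which held 18.8%, mutant library 3 was at -55.6, against 31.2 and 26.2 for mutant libraries 1 and 2 and -11.1 to 14.9 for the control libraries. Rbpj had 47.9, 46.8 and 45.2 CPM (counts scaled by edgeR to a common library size, with TMM factors) in the mutant libraries and 54.3, 54.3 and 53.8 CPM in the control libraries. Its log2 fold change was -0.21 ± 0.042 (SE, adjusted p = 0.0129 by the edgeR quasi-likelihood test), and the adjusted p was 0.051, 0.0571 and 0.0543 without mutant library 2, control library 1 and control library 2. A gene-level count includes exons outside a deleted part and is a weak check of the deletion. Of 12 general endothelial markers, 4 were higher and 2 lower, and their summed level was 13122 to 14155 CPM in the mutant libraries and 12729 to 13065 CPM in the control libraries. Markers of other cells were present too. The 11 pericyte markers summed to 4410 to 4539 CPM in mutant and 4155 to 4274 CPM in control libraries, and the 10 microglia markers to 1278 to 1348 CPM in mutant and 1623 to 1672 CPM in control libraries. Of 10 microglia, 9 oligodendrocyte, 9 neuron, 7 choroid plexus and 7 erythroid markers, 8, 1, 0, 3 and 5 were lower and 0, 2, 0, 0 and 0 higher, in that order. Among these, Cx3cr1, Ctss, Trem2, Olig2, Mog, Folr1, Aqp1 and Kcne2 lost their call without some of the libraries. Each marker of these lists had counts in at least 1 library. Across all 19549 genes tested, 6.83% were called lower and 7.56% higher, by the threshold given below.

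In the mutant libraries 3 of the connexins fell and 1 rose. Gja5, Gjb2 and Gja4 were lower, Gjc1 was higher, and Gja1 and Gjb6 did not pass the threshold, an adjusted p under 0.05 over all 19549 genes tested. All 6 passed the filter on low counts. Called genes made up 14.4% of all genes tested, with 6.83% lower and 7.56% higher. The median log2 fold change, mutant over control, was -0.58 over the 6 connexins and -0.01 over all genes tested. In all 6 connexins the groups did not overlap, as in 34.1% of all genes tested. Every mutant library lay below every control library in 5 connexins and in 17.3% of all genes tested. The call of Gja4 and that of Gjc1 held with any 1 library left out, whereas those of Gja5 and Gjb2 did not, as given beside each gene.

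**Figure D1:**
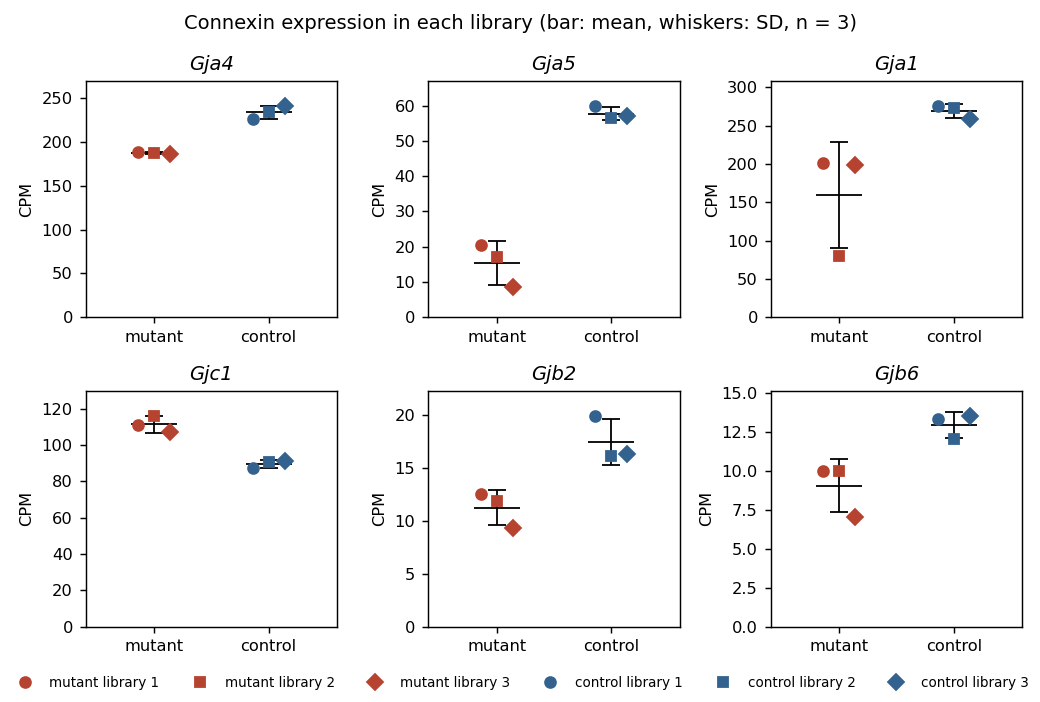
Expression of each connexin in CPM (y axis, from 0) in the 3 mutant and the 3 control libraries (points), with the mean and SD of each group. Gja5 lies between 8.52 and 20.5 CPM in the mutant libraries and between 56.4 and 59.8 CPM in the control libraries, and mutant library 2 stands apart for Gja1 at 79.2 CPM.

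Gja5, the connexin gene most tied to arteries, had the largest change of the 6 in size. Its gene (ENSMUSG00000057123) spans 96904693 to 97077416 on the plus strand of chromosome 3 (GRCm38). It had 20.5, 17 and 8.52 CPM in mutant libraries 1, 2 and 3, against 59.8, 56.4 and 57.1 CPM in the control libraries. The control libraries lay close together, within 1.06-fold, while the highest mutant library was 2.40 times the lowest. Mutant library 3, the lowest, held a count of 631, which is about 158 read pairs. Gja5 averaged 15.3 ± 6.15 CPM in mutant and 57.8 ± 1.81 CPM in control libraries (SD, n = 3 each), a log2 fold change of -1.91 ± 0.346 (SE) or 73.4% lower (adjusted p = 0.0274 by the edgeR quasi-likelihood test). The call depended on which libraries entered. Without mutant library 3 Gja5 had a log2 fold change of -1.62 ± 0.09 (SE, adjusted p = 0.000156). Without mutant library 2 or control library 1, 2 or 3 the adjusted p was 0.0993, 0.0902, 0.0854 and 0.083, with log2 fold changes of -1.99, -1.88, -1.92 and -1.92. Without mutant library 1 it was 0.0413, with a log2 fold change of -2.18, and without the low-count filter it was 0.0566.

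Among the 11738 genes tested with a mean of at least 5 CPM, 352 (3%) had mutant libraries at least 2-fold apart, and Gja5 and Gja1 were both among them. In control libraries 396 genes (3.37%) were this far apart, and none of the 6 connexins was. Gja5 was lowest in mutant library 3, and so were the summed markers of fibroblasts and meninges, astrocytes and choroid plexus, at 711, 229 and 3474 CPM, against 866 to 903, 271 to 280 and 4438 to 4519 CPM in mutant libraries 1 and 2. Among the mutant libraries, the microglia, oligodendrocyte, neuron and erythroid sums were lowest in library 3 too, at 1278, 85.5, 179 and 4665 CPM. The low sums there were thus not particular to a few cell types. The general endothelial, pericyte and smooth muscle sums were highest there among the mutant libraries, at 14155, 4539 and 597 CPM. The summed arterial markers did not follow, with 4095 CPM in mutant library 3, between 4018 and 4311 CPM in mutant libraries 1 and 2. The part of these differences between libraries in the result was not tested.

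Genes annotated on the opposite strand overlap Gja5. Of the antisense genes among them, 9230114J08Rik had no counts and 4930573H18Rik had none in the mutant libraries and 5, 0 and 2 in the control libraries. Gpr89, whose exons share 165 bases with those of Gja5, had 36.9, 34.9 and 32.7 CPM in mutant and 36.8, 39.8 and 37.6 CPM in control libraries and was not called (-0.13 ± 0.062 SE, adjusted p = 0.241). No source used here says whether reads were counted by strand.

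Gja4, also a connexin gene of arterial endothelium, showed a smaller and very even fall, and which cells its counts came from was not tested. Gja4 (ENSMUSG00000050234) lies at 127311421 to 127314039 on the minus strand of chromosome 4 and has a single annotated transcript. Its values were 189, 188 and 187 CPM in the mutant libraries and 226, 235 and 241 CPM in the control libraries. The mutant libraries thus lay within 1.01-fold of each other and the control libraries within 1.07-fold. The log2 fold change was -0.31 ± 0.035 (SE), or 19.6% lower (adjusted p = 0.000979). Over all 14 alternative settings it lay between -0.33 and -0.29, with the adjusted p between 1.88e-08 and 0.00954.

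Within a library the scaling cancels, so that the counts of Gja5 can be set against those of Gja4. Their ratio was 0.108, 0.0904 and 0.0455 in mutant libraries 1, 2 and 3 and 0.265, 0.241 and 0.236 in the control libraries. Every mutant library had a lower ratio than every control library, and the mean log2 ratio differed by -1.69, mutant minus control. The two-sided exact permutation p was 0.1, the smallest that 3 against 3 libraries can give in this test, which therefore cannot pass a threshold of 0.05 here. The difference lay between -1.95 and -1.32 when 1 library was left out.

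Most other markers of arterial endothelium were lower in the same libraries. Of 25 such genes, none of them a connexin, 17 were lower and 3 higher (Depp1, Dll4 and Nrp1), with a median log2 fold change of -0.49. Over all genes tested, 6.83% were lower and 7.56% higher. Cytl1 lost its call whichever library was left out (adjusted p 0.0561 to 0.132). Hey1, Ptprr and Stmn2 lost theirs without some of the libraries, with an adjusted p of up to 0.154, 0.0901 and 0.0554, in that order. Sema3g, a secreted semaphorin of arterial endothelium, had 107, 113 and 115 CPM in mutant and 242, 239 and 240 CPM in control libraries (-1.11 ± 0.038 SE, adjusted p = 5.15e-06). Vegfc, a vascular growth factor, had a log2 fold change of -1.20 ± 0.052 (adjusted p = 1.51e-05). The 12 smooth muscle markers, from the cells that wrap arteries, included 7 lower and 1 higher (Smtn). Their sum was 590 to 597 CPM in mutant and 731 to 766 CPM in control libraries. Smtn made up 338, 334 and 365 CPM of it in mutant and 289, 285 and 282 CPM in control libraries. The sum of the other 11, a choice made after seeing the data, was 257, 256 and 231 CPM in mutant and 477, 446 and 467 CPM in control libraries. Acta2, smooth muscle actin, had 79.2, 74.4 and 61.6 CPM in mutant and 184, 172 and 181 CPM in control libraries (-1.32 ± 0.093 SE, adjusted p = 0.000242). In these bulk libraries, fewer cells of a type and less RNA per cell cannot be told apart.

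Gja1, the connexin gene with the widest expression, gave a call that turned on 1 library. It (ENSMUSG00000050953) lies at 56377330 to 56402513 on the plus strand of chromosome 10. Its values were 201, 79.2 and 198 CPM in mutant libraries 1, 2 and 3 and 275, 273 and 259 CPM in the control libraries. Mutant libraries 1 and 3 lay close together below the controls, and mutant library 2 lay far below both. With all libraries the log2 fold change was -0.76 ± 0.397 (SE) and was not called (adjusted p = 0.326). Leaving out mutant library 2 gave -0.43 ± 0.043 (SE, adjusted p = 0.00179). Without any other library the adjusted p lay at 0.351 or above, and Gja1 was called under no other setting tried.

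The marker sums did not single out mutant library 2. Its astrocyte markers summed to 271 CPM, against 280 and 229 CPM in mutant libraries 1 and 3, its smooth muscle markers other than Smtn to 256 CPM, against 257 and 231, and its endothelial markers to 13248 CPM, against 13122 and 14155. In the same library Gja4 was at 188 CPM and Gjc1 at 116 CPM, close to the other mutant libraries. The Gja1 annotation holds 8 transcripts, and the estimates by transcript behind the gene's count are not analysed here.

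**Figure D2:**
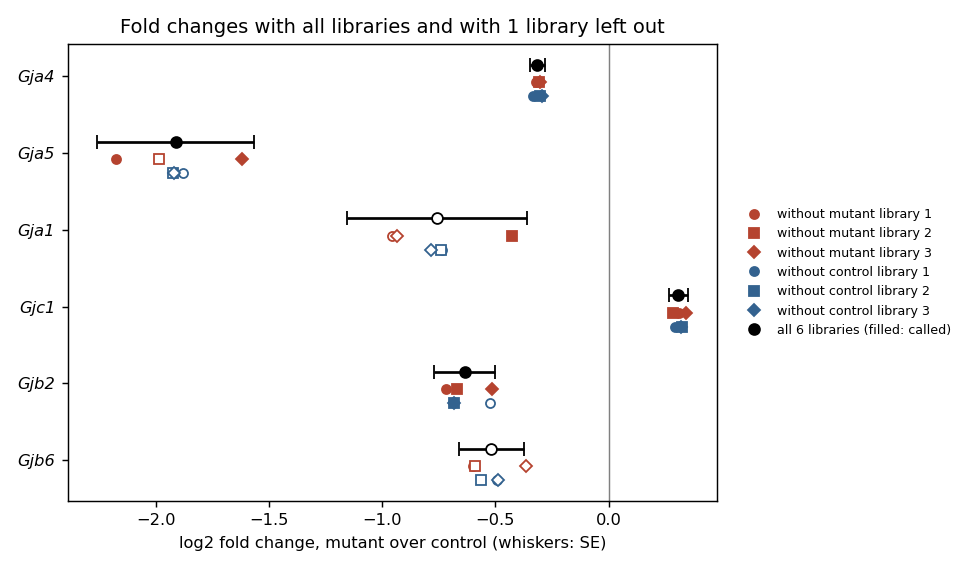
Log2 fold change, mutant over control (x axis), of each connexin, with all 6 libraries (black, whiskers SE) and with each library left out (red for mutant, blue for control libraries), where filled symbols have an adjusted p under 0.05. All values of Gja4 near -0.31 and of Gjc1 near 0.31 are filled, those of Gja5 change with the library left out, and Gja1 is filled only without mutant library 2, at -0.43.

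Gjc1, a mural cell connexin gene, was the one that rose. It (ENSMUSG00000034520) lies at 102799579 to 102819700 on the minus strand of chromosome 11. It had 111, 116 and 107 CPM in the mutant libraries and 87.3, 90.6 and 91.1 CPM in the control libraries. Each mutant library was above each control library, and the log2 fold change was 0.31 ± 0.042 (SE), or 23.9% higher (adjusted p = 0.00262). Over the 14 alternative settings it lay between 0.29 and 0.34, with the adjusted p between 1.29e-06 and 0.0148. Markers of both kinds of mural cell were examined beside Gjc1. Of 11 pericyte markers, 5 were higher (Abcc9, Kcnj8, Higd1b, Ndufa4l2 and Cspg4) and 2 lower (Notch3 and Vtn), with a median of 0.09, while the smooth muscle markers had a median of -0.89. The shares over all genes tested were 7.56% higher and 6.83% lower. Cspg4 lost its call without mutant library 1 or 2 or control library 1 or 3 (adjusted p 0.0553 to 0.0796). Notch3 lost its call without mutant library 1 or 2 or control library 1 or 2 (adjusted p 0.067 to 0.0919). Abcc9, a subunit of potassium channels of pericytes, had 488, 472 and 483 CPM in mutant and 337, 348 and 324 CPM in control libraries (0.52 ± 0.036 SE, adjusted p = 0.000111). The part of the mix of mural cells in the rise of Gjc1 was not tested.

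Gjb2 and Gjb6 are neighbours on chromosome 14, both on the minus strand and 18.6 kb apart, and both encode connexins of meningeal fibroblasts. Gjb2 (ENSMUSG00000046352, 57098600 to 57104702) had 12.5, 11.9 and 9.36 CPM in the mutant libraries and 19.9, 16.1 and 16.3 CPM in the control libraries. Control library 1 was the highest and mutant library 3 the lowest. The log2 fold change was -0.64 ± 0.134 (SE), or 35.6% lower (adjusted p = 0.0184), and without control library 1 it was -0.53 ± 0.134 (adjusted p = 0.0629). Gjb6 (ENSMUSG00000040055, 57123303 to 57133611) had 10, 10 and 7.06 CPM in the mutant libraries and 13.3, 12 and 13.5 CPM in the control libraries. Its log2 fold change of -0.52 ± 0.145 (SE) missed the threshold (adjusted p = 0.0554). It passed with DESeq2 (adjusted p = 0.0104) and without the low-count filter (adjusted p = 0.0365), and with 1 library left out the adjusted p lay between 0.0519 and 0.151.

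Some fibroblast and meningeal markers were lower beside these 2 genes. Of 13, 5 were lower and none higher, with a median of -0.43, and their sum was 711 to 903 CPM in mutant and 1048 to 1174 CPM in control libraries. By comparison, 6.83% of all genes tested were lower and 7.56% higher. Col1a2 and Islr, both among the 5, lost their call without some of the libraries, with an adjusted p of up to 0.111 and 0.0674. Ogn, a small matrix proteoglycan of fibroblasts, had 11.8, 11.8 and 10.9 CPM in mutant and 22.4, 21 and 21 CPM in control libraries (-0.90 ± 0.069 SE, adjusted p = 0.000165). Of 12 astrocyte markers 1 was lower, the water channel gene Aqp4 (-0.36 ± 0.090 SE, adjusted p = 0.0376, and 0.0983 to 0.122 without mutant library 2 or 3 or control library 1 or 2). The astrocyte sum was 229 to 280 CPM in mutant and 290 to 345 CPM in control libraries. A large part of this gap came from Slc1a3, a gene not called with all libraries (edgeR adjusted p = 0.113). Slc1a3 had 40, 39.1 and 28.5 CPM in mutant and 89.5, 45.7 and 86.7 CPM in control libraries. In mutant library 3 Gjb2, Gjb6 and the fibroblast and astrocyte sums were each at their lowest. This was not particular to fibroblasts and astrocytes. The microglia, oligodendrocyte, neuron, choroid plexus and erythroid sums were also lowest there among the mutant libraries. The part of fibroblasts and astrocytes in the values of Gjb2 and Gjb6 was not tested.

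**Figure D3:**
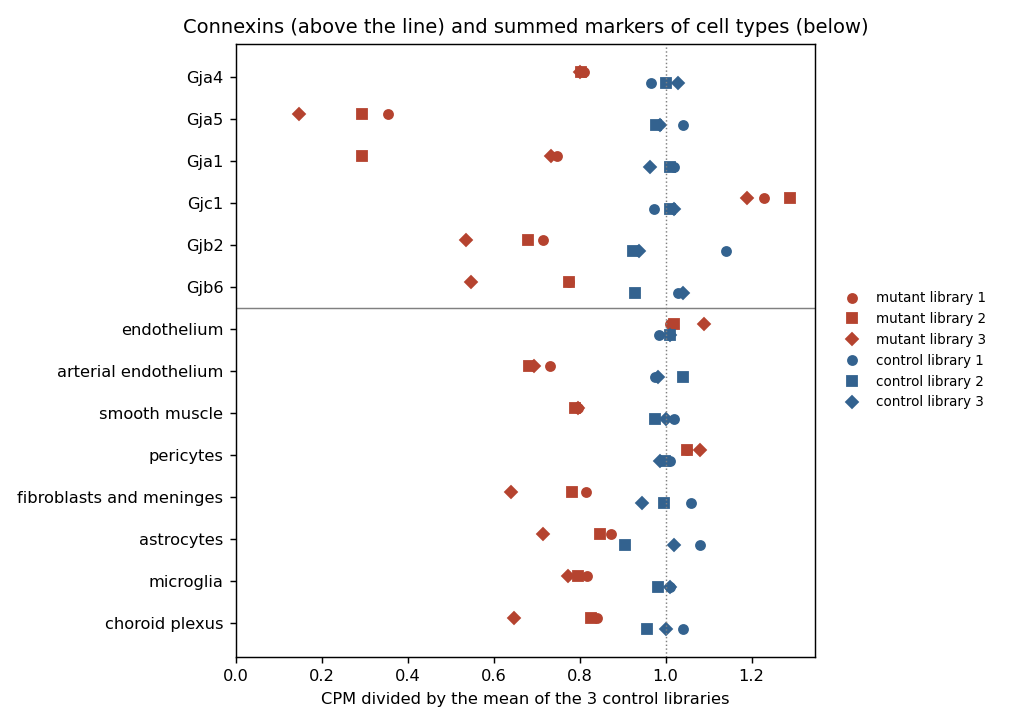
CPM of each connexin (above the line) and summed CPM of the markers of each cell type (below) in every library, divided by the mean of the 3 control libraries. Gja5 lies at 0.147 to 0.354 in the mutant libraries, below every summed list shown, the smooth muscle points include Smtn (0.499 to 0.555 in mutant libraries without it), the general endothelial markers lie at 1.01 to 1.09, and fibroblast markers reach 0.641 in mutant library 3.

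Scaled to the length of the principal transcript, Gja4 had the highest level of the 6 in both groups. In mutant libraries its level averaged 112 ± 0.654 CPM per kb (SD, n = 3), followed by Gja1 at 50 ± 21.8 and Gjc1 at 48 ± 1.94, which did not differ beyond their spread. Gja5, Gjb2 and Gjb6 followed at 4.93 ± 1.98, 4.67 ± 0.686 and 4.29 ± 0.813 CPM per kb, again within their spread. In control libraries the level of Gja4 was 139 ± 4.68 CPM per kb, that of Gja1 84.5 ± 2.64, that of Gjc1 38.7 ± 0.892 and that of Gja5 18.6 ± 0.581, each apart from the next by more than their SDs. Gjb2 at 7.25 ± 0.877 and Gjb6 at 6.15 ± 0.381 CPM per kb lay within their spread. Over all annotated exons, which for Gja1 sum to 10257 bases against 3182 in the principal transcript, Gjc1 stood above Gja1 in mutant libraries, at 22.2 and 15.5 CPM per kb, and Gja5 came last of the 6 at 2.67, while the order in control libraries stayed as given. The summed level of the 6 was 240, 202 and 229 CPM per kb in the mutant libraries and 292, 295 and 296 CPM per kb in the control libraries. Gja5 made up 2.22 ± 0.886% of this sum in mutant and 6.32 ± 0.239% in control libraries. For Gjc1 the shares were 21.6 ± 2.75% in mutant and 13.2 ± 0.214% in control libraries. Gja4 held 50.2 ± 4.52% in mutant and 47.2 ± 1.28% in control libraries, a difference within the spread.

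**Figure D4:**
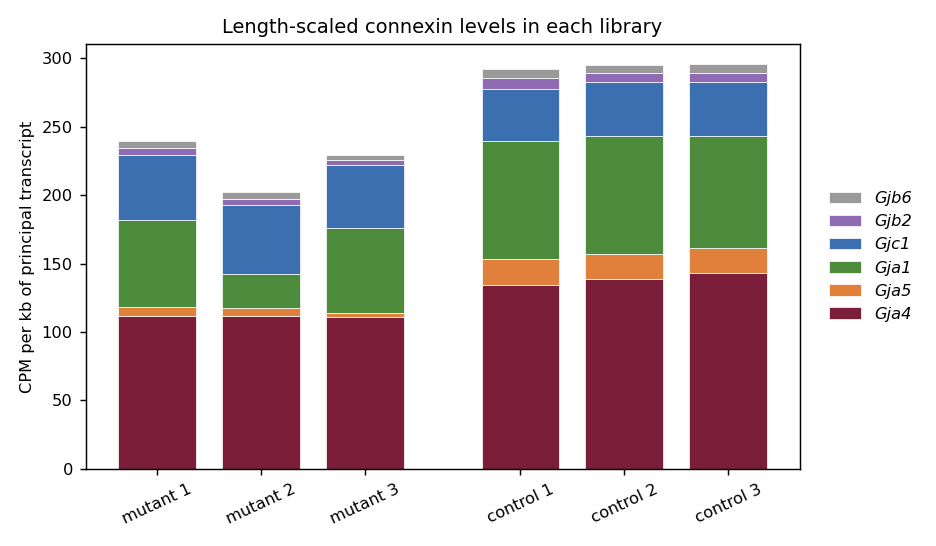
Level of each connexin in CPM per kb of principal transcript (y axis), stacked for each mutant and control library. Gja4 is the largest part of every bar, the bars reach 202 to 240 in mutant and 292 to 296 in control libraries, and the Gja1 part is smallest in mutant library 2 at 24.9.

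Apart from Panx1, the other connexin and pannexin genes had few counts in these libraries. Of 17, namely 14 connexins and 3 pannexins, 15 stayed below 1 CPM in every library and some, Gjd4 and Gje1 among them, had no counts. Only 8 passed the low-count filter. The highest connexin among them was Gjc3 (Cx29), an oligodendrocyte connexin, with 0.73, 0.798 and 0.783 CPM in mutant and 1.35, 1.81 and 1.2 CPM in control libraries. It was lower (-0.91 ± 0.235 SE, adjusted p = 0.041), but its adjusted p was 0.089 to 0.138 without any 1 of mutant libraries 1, 2 and 3 and control libraries 1 and 2. The other 7 tested were not called. Panx1, which forms large-pore membrane channels, had 16.1, 12.9 and 15.5 CPM in mutant and 15.5, 16.6 and 15.3 CPM in control libraries (-0.09 ± 0.098 SE, adjusted p = 0.629).

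Some genes whose proteins bind, phosphorylate or deliver connexins changed. All 27 listed were tested, 5 being higher and 3 lower, with a median of 0.02. Among all genes tested, 7.56% were higher and 6.83% lower. Prkce, a protein kinase C, had 54.6, 54.7 and 54.5 CPM in mutant and 36.7, 37.4 and 35.3 CPM in control libraries (0.58 ± 0.043 SE, adjusted p = 0.000137). Mapre1, which encodes a protein at the growing ends of microtubules, along which connexins reach the membrane, had a log2 fold change of 0.21 ± 0.034 (adjusted p = 0.00623), and Vim, an intermediate filament gene, one of 0.55 ± 0.080 (adjusted p = 0.0057). Tjp1, which encodes the scaffold protein that binds the tail of several connexins, had 692, 632 and 726 CPM in mutant and 715, 703 and 691 CPM in control libraries and was not called (-0.04 ± 0.051 SE, adjusted p = 0.684). Among the lower members, Cdh5, the endothelial cadherin gene, and Src, a tyrosine kinase gene, had log2 fold changes of -0.15 and -0.17. Both lost their call when any 1 library other than mutant library 3 was left out.

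Known regulators of the arterial connexins included 10 lower and 4 higher genes. Of 27 listed, 23 were tested, with 10 lower, 4 higher (Dll4, Notch4, Sox7 and Tgfb1) and a median of -0.15. Over all genes tested, 6.83% were lower and 7.56% higher. Some of these calls depended on which libraries entered. With 1 library left out, the adjusted p reached 0.0547 for Notch1, 0.071 for Foxo1, 0.0608 for Tbx3 and 0.0508 for Sox7. Rbpj, given above, and Foxc2 and Hey1, given below, also lost their call. The list holds Rbpj itself and shares Hey1, Dll4, Jag1 and Sox17 with the arterial markers. Klf2, a transcription factor induced by flow, had 198, 203 and 198 CPM in mutant and 303, 301 and 308 CPM in control libraries (-0.61 ± 0.030 SE, adjusted p = 2.39e-05). Its relative Klf4 had a log2 fold change of -0.55 ± 0.056 (adjusted p = 0.000606). Foxc2, a forkhead factor of arterial and lymphatic development, was low, at 2.81 ± 0.571 CPM in mutant and 5.36 ± 0.896 CPM in control libraries (adjusted p = 0.0159, and 0.0545 to 0.059 without mutant library 2 or 3 or control library 1). Hey1, a repressor that Notch switches on, had a log2 fold change of -0.52 ± 0.127 (adjusted p = 0.0493, and 0.0744 to 0.154 with any 1 library left out except mutant library 1). Gata4, Tbx5 and Bmp10, which act in the heart, had no counts.

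The genes nearest in profile to each called connexin were ranked by the root mean square difference of log2 CPM over the 6 libraries, with each gene centred on its control mean, among the 11738 genes with at least 5 CPM. For Gja5 these were F2rl1, a protease-activated receptor gene, at 0.280, Syt15, a synaptotagmin gene, at 0.411 and Npr3, a natriuretic peptide receptor gene, at 0.486. Their distances were larger than those of the genes nearest to the other connexins. F2rl1 had 2.82, 2.83 and 1.98 CPM in mutant and 8.33, 8.52 and 8.99 CPM in control libraries. For Gja4 the nearest were Gm8730 at 0.014, Sox18, which encodes an endothelial SOX factor, at 0.017 and Ehd1, a gene of endocytic recycling, at 0.023. Sox18 had 297, 296 and 297 CPM in mutant and 365, 367 and 383 CPM in control libraries. For Gjc1 they were Zc3h12c at 0.029, Lrrc59 at 0.031 and Cbl, a ubiquitin ligase gene, at 0.032. For Gjb2 they were Islr, one of the fibroblast markers above, at 0.060, Sncaip at 0.061 and Gm5127 at 0.066. These ranks describe 6 libraries in 2 groups.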

How the data were processed

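Per the labels, both groups went through collagenase digestion, a Percoll gradient, CD31 magnetic beads and a stranded poly(A) library kit. Gene-level values are estimated counts as the authors deposited them, in whole numbers without scaling. Tools listed by the submitters' processing notes are HISAT2, StringTie 1.3.4, edgeR, cutadapt 1.10 and FastQC 0.10.1, with the build GRCm39, and no roles, parameters or annotation. All 55450 gene IDs matched GENCODE M21 (GRCm38), used here for symbols and coordinates. A count of valid reads per library was also deposited.

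Genes were filtered with filterByExpr, scaled by TMM and compared, mutant over control, with the edgeR 4.0.16 quasi-likelihood F test (R 4.3.3, robust, group as the only term). Rounding changed nothing. The Benjamini-Hochberg adjustment ran over 19549 genes. SE was the log2 fold change over the square root of F. The test was run on simulated data drawn from its own fitted spread, which checks how it was run and not the calls given here. Alternatives used RLE factors, library size only, other filters, DESeq2 1.42.0, limma-voom (limma 3.58.1), counts divided by 4, a replicate block and each library left out. No 2 libraries of a group agreed within sampling noise (median chi-square 1.97 to 2.97 times its expectation, counts taken as read pairs). Level per length used the longest principal (APPRIS) transcript.

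Named from each list were up to 4 called genes with the largest log2 change, beside all 6 members, genes that overlap them and the 3 nearest profiles, except for items that are not reported here. Tjp1, Panx1 and Slc1a3, and members named beside a short count, were chosen after their values were seen. Members and lists were chosen with earlier results of these data known.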

Additional observations from a re-analysis of the deposited data

How the results depend on the processing

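Over 14 alternative settings, none of the 84 values of the 6 connexins changed direction, and of 56 values of the 4 called genes 49 stayed called and 7 did not, while of 28 values of Gja1 and Gjb6 25 stayed uncalled and 3 were called. Gja4 and Gjc1 were called under all 14. With 1 library left out, the log2 fold change lay between -2.18 and -1.62 for Gja5, between -0.96 and -0.43 for Gja1, between -0.72 and -0.515 for Gjb2 and between -0.60 and -0.36 for Gjb6. Without the low-count filter Gja5 (-1.91) lost its call and Gjb6 (-0.51) gained one, as Gjb6 did with DESeq2 (-0.51); the cause was not tested. Genes called lower numbered 1335 with all libraries and 807 to 1125 with 1 library left out (807 without control library 1, 861 without control library 2, 865 without mutant library 2), where fewer samples enter the test. Genes called higher numbered 1477, and 1100 to 1270 with 1 library left out. With the replicate number as a block, Gja5 had a log2 fold change of -1.999 and lost its call (adjusted p = 0.0705), and 1106 genes were higher and 953 lower. Same-numbered libraries did not deviate together from their group means (r = -0.0233, 0.00969 and 0.0233 across genes for numbers 1, 2 and 3). These values show no shared deviation across genes, and they cannot decide whether the libraries were paired when they were prepared. The shift of each gene's log2 fold change from the main fit had a median, over the genes in both fits, no further from 0 than 0.0112 in any setting. In mutant libraries Gja5, Gjb2 and Gjb6 rest on about 131 to 421 read pairs each; the SE was largest for Gja1 (0.397) and Gja5 (0.346), whose mutant libraries lay furthest apart.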
